A study of Rattus norvegicus with 36 samples.

Results

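ENSRNOG00000008942 and ENSRNOG00000001777 are the rat genes with the largest day-to-night decreases shared by Control and Sham pineal glands, among genes that passed a filter. They are 2 of 29516 annotated genes, of which 24811 had a count in at least 1 library. They were chosen by the smaller of their night/day changes in Control and Sham, so those contrasts are given below as a description, with no test. Only genes at an edgeR adjusted p under 0.001 and more than 4-fold lower at night in both Control and Sham were ordered. Among them the smaller fold was 36.3 for ENSRNOG00000008942 and 12.01 for ENSRNOG00000001777. The next gene in that order, which was left out, had 10.53. The order is of estimates, and the difference between neighbouring places was not tested. In Sham alone the genes at places 3 and 5 fell more than ENSRNOG00000001777. Their log2 fold changes there were -4.08 and -4.16, against -3.59. A gene outside the filter could have a larger decrease. The sources used here do not pair these Ensembl identifiers with gene symbols, so neither gene's product or position is given.

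The libraries came from Sprague-Dawley rats kept in 14 h of light and 10 h of darkness. In vivo, male and female rats were 40 days old at dissection, which was either in the middle of the light period (ZT7) or in the dark (ZT19), ZT being hours after lights on. Control rats were not operated on. In the other groups surgery was done on postnatal day 5: Sham rats had the superior cervical ganglia exposed only, DCN (decentralized) rats had the trunk that carries central input to the ganglia cut, and SCGX rats had both ganglia removed. Each group had 3 libraries per time, each from a pool of glands, so that an n of 3 counts pools. In vitro, glands of female rats aged 2 to 3 months were cultured for 48 h and then for 6 h with no drug (untreated), with 1 µM norepinephrine (NE) or with 500 µM dibutyryl cyclic AMP (DBcAMP), with 3 libraries each. The remaining 3 libraries were a pineal day library, a pineal night library and a mixture of 15 tissues, with no replicate of any of them. All glands were whole, and in such bulk RNA fewer cells of a type and less RNA per cell cannot be told apart.

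The pineal gland makes melatonin at night. The signal comes from the circadian clock in the brain, through the superior cervical ganglia, whose sympathetic fibers release norepinephrine into the gland in darkness. Norepinephrine acts on adrenergic receptors of pinealocytes and raises cyclic AMP, and DBcAMP is a cell-permeant analog that acts on the same pathway without the receptor. Most strongly rhythmic pineal genes are known for rising at night, and the genes described here go the other way.

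Library totals on genes ran from 12985072 to 18504240 read-pairs in vivo, from 12556861 to 18524435 in culture and from 28836161 to 38574186 in the single libraries. ENSRNOG00000008942 had 25084 read-pairs over the 36 libraries and ENSRNOG00000001777 had 1545, and each had a count in 36 of 36. Sham night replicate 3 and DCN day replicate 1 stood apart from the other in vivo libraries on the second principal component of the 500 most variable genes, and values without them are given where a test rests on them. Levels below are CPM, a gene's read-pairs relative to the library total, scaled by TMM, edgeR's trimmed-mean normalization, and differences are log2 fold changes from edgeR with Benjamini-Hochberg adjustment over all genes tested. A gene was called at an adjusted p-value under 0.001.

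ENSRNOG00000008942 had a high level by day and almost none at night in intact animals. Its read-pair counts were 775, 935 and 1159 in Control day and 25, 18 and 15 in Control night. In Sham they were 1464, 567 and 759 by day and 19, 34 and 24 at night. The lowest day library was thus above the highest night library by more than an order of magnitude, and the Control and Sham libraries overlapped at each time. In CPM, Control was 57.3 ± 8.35 (SD, n = 3) by day and 1.27 ± 0.300 at night, and Sham was 57.0 ± 26.6 by day and 1.62 ± 0.345 at night. The night/day log2 fold change was -5.46 (SE 0.18), 44.2-fold lower, in Control and -5.18 (SE 0.41), 36.3-fold lower, in Sham, where it was -5.12 without Sham night replicate 3. The same rule on adjusted p called 3.02% of tested genes lower at night in Control and 0.623% in Sham. The Sham share rests on 100 genes, and 1, 3 and 5 genes were called lower without Sham day replicates 2, 3 and 1, 16 and 32 without Sham night replicates 2 and 1, and 67 without Sham night replicate 3. Among genes with a count, its RPKM stood at percentile 67.1 in Control day and at percentile 15.5 in Control night, means over 3 libraries.

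ENSRNOG00000001777 fell less and started lower. Its counts were 69, 125 and 119 in Control day and 4, 5 and 6 in Control night. In Sham they were 115, 103 and 62 by day and 9, 7 and 7 at night. Day and night did not overlap here either, and every night count was a single digit, so that counting error alone is large at night. Its level went from 6.27 ± 1.83 to 0.331 ± 0.0761 CPM in Control (SD, n = 3) and from 5.75 ± 1.55 to 0.492 ± 0.0984 CPM in Sham. The log2 fold change was -4.20 (SE 0.35), 18.4-fold lower, in Control and -3.59 (SE 0.35), 12.01-fold lower, in Sham, where it was -3.50 without Sham night replicate 3. Its RPKM stood at percentile 25.02 of genes with a count in Control day, and at percentile 2.25 in Control night.

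**Figure D1:**
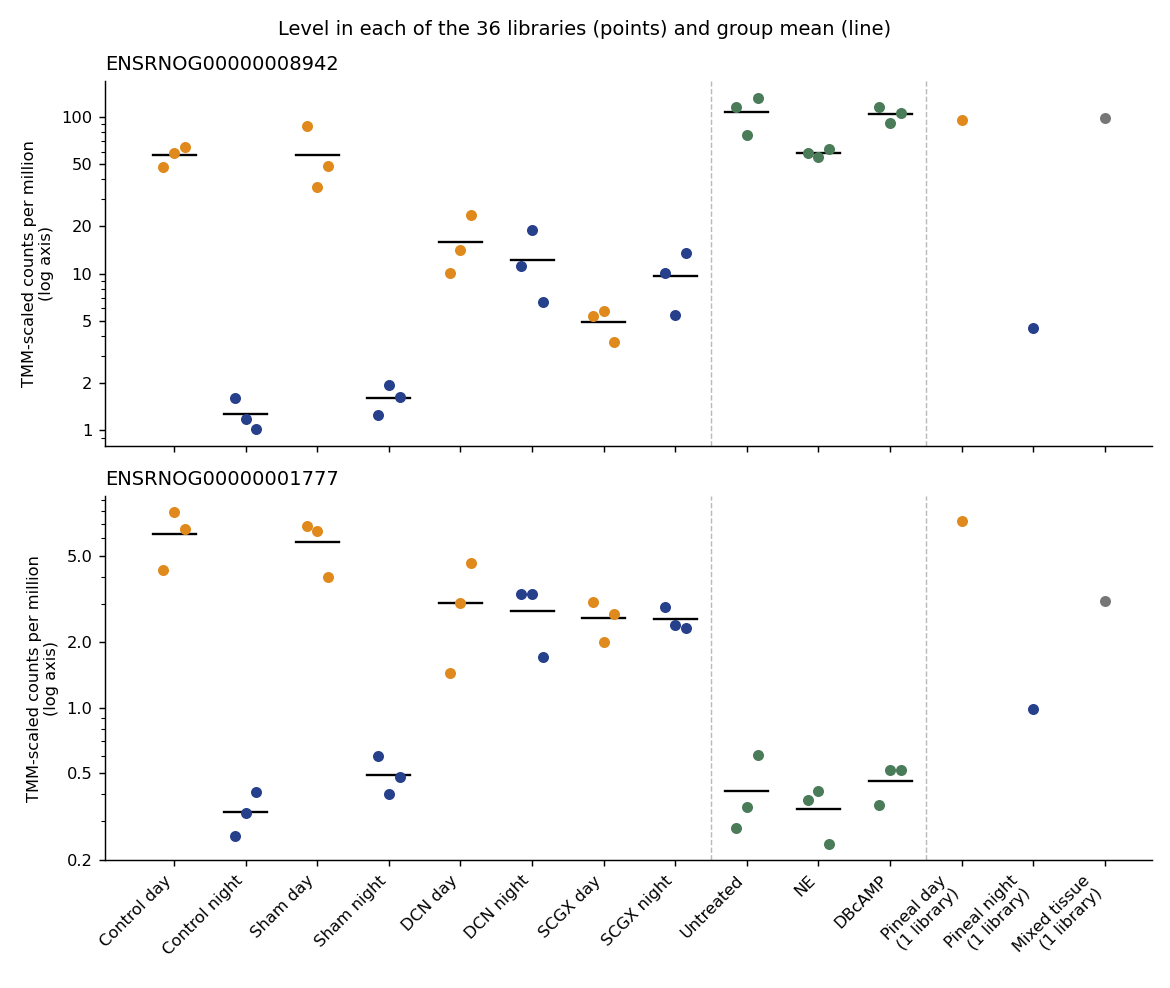
Level of each gene in TMM-scaled CPM, on a log axis, in each of the 36 libraries by group (points: libraries, orange by day, blue at night, green in culture and grey for mixed tissue; lines: means of 3). The DCN and SCGX libraries of ENSRNOG00000008942 lie between its intact day and intact night libraries, those of ENSRNOG00000001777 lie above its intact night and overlap its intact day libraries, and in culture ENSRNOG00000008942 is within or above its intact day range while ENSRNOG00000001777 is near its intact night range.

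The first question of the design was whether the night decrease remained when the ganglia were cut off from the brain or removed. In neither group was a night decrease called. In DCN, ENSRNOG00000008942 had 182, 238 and 398 read-pairs by day and 175, 319 and 108 at night. The times overlapped, with 16.0 ± 6.97 CPM by day and 12.3 ± 6.24 CPM at night (SD, n = 3). The log2 fold change was -0.38 (95% interval -1.39 to 0.62, adjusted p = 0.814). ENSRNOG00000001777 had 26, 51 and 78 read-pairs by day and 52, 56 and 28 at night in the same libraries. These were 3.04 ± 1.60 and 2.79 ± 0.931 CPM, and the times overlapped. Its log2 fold change was -0.12 (95% interval -1.21 to 0.96, adjusted p = 0.959). The intervals do not reach the decreases of the intact groups, which chose the genes, so this is a description and was not tested. The same library was lowest for both genes at each time, DCN day replicate 1 and DCN night replicate 3. Without DCN day replicate 1 the fold changes were -0.62 (adjusted p = 0.830) and -0.46 (adjusted p = 0.855), and without DCN day replicate 3 they were 0.011 and 0.31. The edgeR test called 0 of 15928 genes in DCN (0%), with 1431 at an unadjusted p under 0.05 and 27 called by DESeq2.

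In SCGX, ENSRNOG00000008942 had its higher mean at night and ENSRNOG00000001777 was level, and neither change was called. ENSRNOG00000008942 had 90, 86 and 53 read-pairs by day and 142, 93 and 196 at night. The night libraries were mostly higher, at 9.67 ± 3.998 CPM against 4.94 ± 1.12 CPM by day (SD, n = 3), and night replicate 2, at 5.47 CPM, lay within the day range of 3.66 to 5.77 CPM. The log2 fold change was 0.95 (95% interval 0.26 to 1.64), opposite in sign to the intact groups, and it was not called (unadjusted p = 0.0126, adjusted p = 0.150). Without SCGX night replicate 3 it was 0.64, with a 95% interval of -0.02 to 1.31 that includes 0. Without SCGX night replicate 2 it was 1.25 (95% interval 0.77 to 1.73). ENSRNOG00000001777 had 51, 30 and 39 read-pairs by day and 41, 41 and 34 at night. It was level, at 2.59 ± 0.529 and 2.55 ± 0.318 CPM, with a log2 fold change of -0.03 (95% interval -0.53 to 0.47, adjusted p = 0.962). Over all genes 2 of 15551 were called in SCGX (0.0129%), neither of them described here, and DESeq2 called 176. In the same edgeR test 2821 of the 15551 genes had an unadjusted p under 0.05.

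The night/day changes of SCGX and DCN were then compared directly. For ENSRNOG00000008942 the SCGX change exceeded the DCN change by 1.35 on the log2 scale (SE 0.60, 95% interval 0.03 to 2.66), which was not called (unadjusted p = 0.0454, adjusted p = 0.470). Without DCN day replicate 1 it was 1.57 (adjusted p = 0.398). For ENSRNOG00000001777 the difference was 0.10 (SE 0.54, adjusted p = 0.965), and 0.42 without that library (adjusted p = 0.763). No gene of 15779 was called in this comparison by edgeR (0%), with 1665 at an unadjusted p under 0.05 and 2 called by DESeq2.

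Between the operated groups, ENSRNOG00000008942 had its lower day values after the ganglia were removed, in a difference that edgeR did not call. All 3 SCGX day libraries (3.66 to 5.77 CPM) lay below all 3 DCN day libraries (10.2 to 23.7 CPM). The log2 difference was -1.70 (SE 0.33, 95% interval -2.46 to -0.94), 3.25-fold lower in SCGX. The adjusted p was 0.0660 in edgeR, and the gene was called by DESeq2 (adjusted p = 2.37e-05). Without DCN day replicate 1 it was -1.94 (adjusted p = 0.0112), and without DCN day replicate 3, the highest, it was -1.30 (adjusted p = 0.0679). At night the groups overlapped, with a log2 difference of -0.36 (95% interval -1.32 to 0.61, adjusted p = 1.000). For ENSRNOG00000001777 the log2 difference was -0.24 (95% interval -1.19 to 0.72, adjusted p = 0.792) by day, or -0.57 without DCN day replicate 1 (adjusted p = 0.294), and -0.13 (95% interval -0.81 to 0.55, adjusted p = 1.000) at night. The edgeR test called 0 of 15902 genes by day (0%), with 3134 at an unadjusted p under 0.05 and 233 called by DESeq2. At night it called 0 of 15579 (0%), with 592 at an unadjusted p under 0.05 and 4 called by DESeq2.

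Set beside the intact groups, whose libraries chose the genes, the operated groups held intermediate levels. Over the 12 DCN and SCGX libraries ENSRNOG00000008942 ranged from 3.66 to 23.7 CPM, below the 35.6 to 86.8 CPM of the 6 intact day libraries and above the 1.02 to 1.95 CPM of the 6 intact night libraries. ENSRNOG00000001777 ranged from 1.45 to 4.65 CPM in the operated libraries, against 3.97 to 7.90 CPM in intact day and 0.256 to 0.597 CPM in intact night, so that it overlapped the intact day range. By group means, ENSRNOG00000008942 was 3.57 times as high in Sham day as in DCN day and 11.5 times as high as in SCGX day. ENSRNOG00000001777 was 1.89 and 2.23 times as high. At night the order was the other way, with DCN 7.58 and SCGX 5.98 times as high as Sham for ENSRNOG00000008942, and 5.66 and 5.18 times for ENSRNOG00000001777. These ratios were not tested, since they share the libraries that chose the genes.

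The correlation of the genes with each other was positive in DCN and slightly negative in SCGX, a difference that was not tested. Over the 12 operated libraries the Pearson correlation of their log2 levels was 0.474 (Spearman 0.448), falling to 0.363 without the 2 libraries farthest from the median of ENSRNOG00000008942. It was 0.831 (Spearman 0.886) over the 6 DCN libraries and -0.089 (Spearman -0.429) over the 6 SCGX libraries, and the corresponding values without 2 libraries were 0.633 and -0.379. These are descriptions of a few libraries that share groups, times and a sequencing pool.

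**Figure D2:**
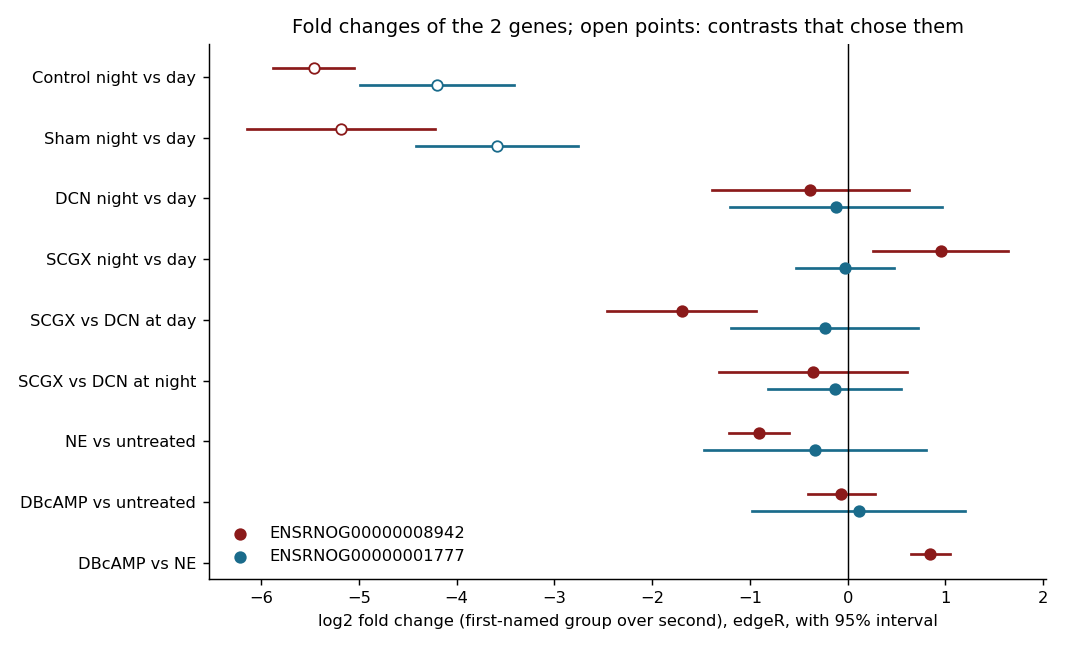
Log2 fold change of each gene from edgeR, first-named group over second, with its 95% interval; open points are the contrasts that chose the genes. The intact decreases lie below -3, the DCN intervals include 0, and ENSRNOG00000008942 lies at 0.95 in SCGX, at -0.91 with NE and at 0.84 for DBcAMP over NE; ENSRNOG00000001777 has no point in that last comparison because its counts were under the filter.

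The culture libraries asked whether NE, the transmitter of the nerve, or DBcAMP would change these genes in the isolated gland. ENSRNOG00000008942 fell with NE and was not called with DBcAMP. Its read-pair counts were 1645, 1093 and 2395 in untreated glands, 778, 675 and 784 with NE, and 1300, 1064 and 1227 with DBcAMP. In CPM these were 108 ± 28.9, 58.7 ± 3.08 and 104 ± 12.5 (SD, n = 3). All 3 NE libraries (55.7 to 61.9 CPM) lay below all 3 untreated libraries (76.0 to 132 CPM) and below all 3 DBcAMP libraries (91.3 to 116 CPM), while DBcAMP lay within the untreated range. NE over untreated was -0.91 on the log2 scale (SE 0.14, 95% interval -1.22 to -0.60), 1.88-fold lower, with an adjusted p of 0.000151. Of all genes tested, 4.65% were called lower with NE. The call was not met by DESeq2 (adjusted p = 0.00163), without NE replicate 1 (adjusted p = 0.00174) or without NE replicate 2 (adjusted p = 0.00166), with the direction unchanged in each.

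DBcAMP over untreated was -0.07 on the log2 scale for ENSRNOG00000008942 (95% interval -0.41 to 0.28, adjusted p = 0.766), an interval that does not reach the NE value. The direct comparison of the drugs gave DBcAMP over NE as 0.84 (SE 0.09, 95% interval 0.64 to 1.05), 1.80-fold higher, with an adjusted p of 0.000146. The test called 0.892% of genes higher with DBcAMP than with NE, and 16.7% changed with DBcAMP in either direction against untreated. With all 9 culture libraries in 1 model the difference was 0.85 (adjusted p = 0.00276), and the call was also not met without NE replicate 1 (adjusted p = 0.00179) or NE replicate 2 (adjusted p = 0.00245). The doses of the drugs, 1 µM and 500 µM, are of different compounds and were not matched.

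ENSRNOG00000001777 was close to its night level in every culture. It had 4, 5 and 11 read-pairs in untreated glands, 5, 5 and 3 with NE and 4, 6 and 6 with DBcAMP. These are 0.412 ± 0.173, 0.342 ± 0.0929 and 0.462 ± 0.0907 CPM (SD, n = 3), and the groups overlapped. NE over untreated was -0.33 on the log2 scale (95% interval -1.47 to 0.80, adjusted p = 0.688), and DBcAMP over untreated was 0.11 (95% interval -0.98 to 1.20, adjusted p = 0.880). The counts are compatible with any change inside these intervals, so a change of such a size could have been missed at this depth. For DBcAMP over NE the mean normalized count was under 5 and the gene was not tested. Over the 9 culture libraries it had 49 read-pairs in all (95% Poisson interval 36.3 to 64.8, counting error only), and over the 6 intact night libraries it had 38 (26.9 to 52.2).

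The culture levels of the genes lay on opposite sides of their Control day levels. Untreated glands had 1.88 times the mean CPM of Control day for ENSRNOG00000008942, while for ENSRNOG00000001777 Control day had 15.2 times the mean CPM of untreated glands. NE glands had 46.2 times the Control night level of the first gene and 1.03 times that of the second. Age, sex, time in culture and sequencing pool all differ between the in vivo and culture libraries and cannot be told apart, so these ratios were not tested.

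Per length, ENSRNOG00000008942 had the higher level in every library. Gene lengths recovered from the deposited counts and RPKM values were 3819 and 7258 bases. The ratio of RPKM of ENSRNOG00000008942 over ENSRNOG00000001777 had a median of 18.5 in Control day and 23.3 in Sham day. Night medians were 6.84 (Control) and 6.52 (Sham). The DCN medians were 9.70 by day and 7.33 at night, and those of SCGX were 3.35 by day and 6.58 at night. In culture the medians were 415 untreated, 296 with NE and 389 with DBcAMP. The ratio was lowest in SCGX day and highest in untreated culture, where the denominator rests on 4 to 11 read-pairs a library. It rests on 3 to 11 over all 9 culture libraries and on 4 to 9 over the 6 intact night libraries, so those medians are imprecise too.

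**Figure D3:**
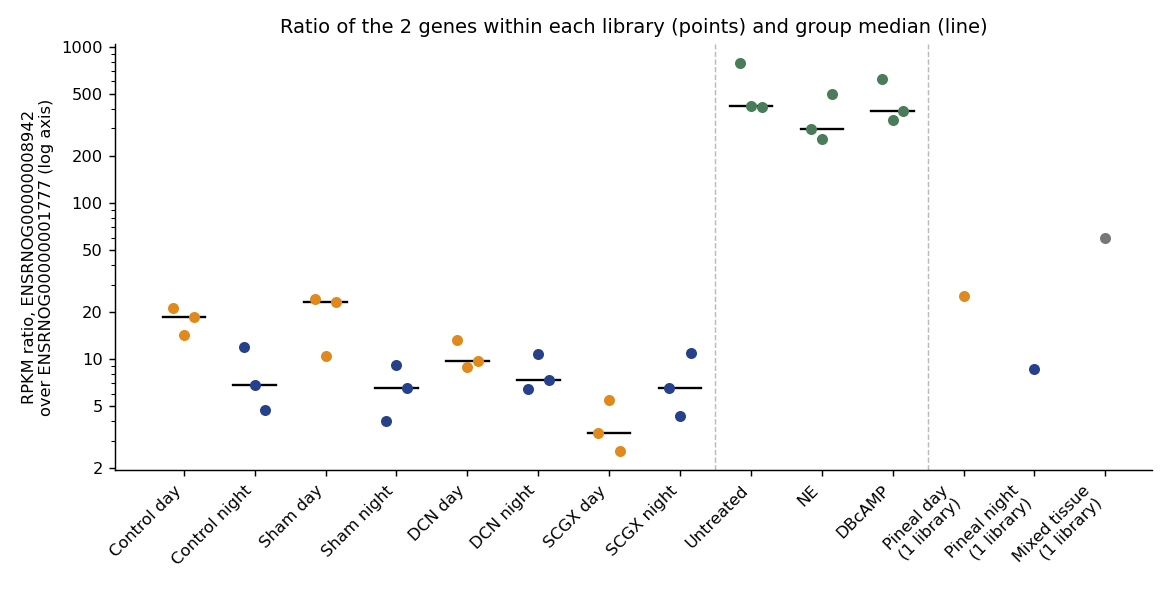
Ratio of the RPKM of ENSRNOG00000008942 to that of ENSRNOG00000001777 within each library, on a log axis, by group (points: libraries; lines: medians of 3). The in vivo medians lie between 3.35 in SCGX day and 23.3 in Sham day, and the culture medians between 296 and 415.

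Ordered by mean CPM, the levels of ENSRNOG00000008942 ran from untreated, DBcAMP, NE, Control day, Sham day, DCN day, DCN night, SCGX night, SCGX day and Sham night to Control night. Neighbours in this order did not overlap at DBcAMP over NE, Sham day over DCN day and SCGX day over Sham night, and overlapped elsewhere. For ENSRNOG00000001777 the order was Control day, Sham day, DCN day, DCN night, SCGX day, SCGX night, Sham night, DBcAMP, untreated, NE and Control night. Its neighbours were separate at SCGX night over Sham night and overlapped elsewhere, which parts the day and operated groups from the intact night and culture groups.

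The single libraries were not part of the choice and have no replicates, so their values compare libraries and not conditions. ENSRNOG00000008942 had 2616 read-pairs in the pineal day library, 136 in the pineal night library and 3497 in the mixed-tissue library. Scaled by library total, day was 24.5 times night (95% counting interval 20.6 to 29.3), and day was 1.00 times the mixture (0.951 to 1.05). ENSRNOG00000001777 had 197, 30 and 111 read-pairs. Day was 8.37 times night (5.68 to 12.7) and 2.37 times the mixture (1.87 to 3.02). Both genes were lower in the night library, with ratios smaller than their edgeR folds in Control and Sham. Those folds use TMM scaling and come from the contrasts that chose the genes. For ENSRNOG00000001777 the counting interval includes the 12.01-fold of Sham. Both genes were counted in the mixture of 15 tissues.

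Pattern likeness was taken over the 8 in vivo group means of 15808 genes. The Pearson correlation of log2 levels of ENSRNOG00000008942 with the most alike gene was 0.994, and with the fifth most alike 0.986. For ENSRNOG00000001777 the corresponding values were 0.994 and 0.989. The likeness is of shape and not of size. The 5 genes most alike to ENSRNOG00000008942 spanned 0.27 to 2.67 on the log2 scale over the groups, against 5.38 for the gene itself. The 5 most alike to ENSRNOG00000001777 spanned 0.62 to 5.26, against 3.79 for that gene. With each other the 2 genes correlated at 0.9499. With ENSRNOG00000008942, 112 genes (0.709%) exceeded 0.95, and with ENSRNOG00000001777 266 (1.68%) did, so neither was the other's closest match. These correlations rest on 8 means that share the intact groups' decrease, and the most alike genes are not named for want of symbols.

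The genes were also set beside the other 12 that met an adjusted p under 0.001 and were more than 4-fold lower at night in both Control and Sham, a list chosen on those groups. It needs a call in Sham, so it rests on all 6 Sham libraries: as given above, 1 to 67 genes in all were called lower in Sham with a library left out, against 100. In DCN the 12 had a median log2 fold change of -0.29, with 9 below 0. Over all genes tested the median was -0.0072, with 51.7% below 0. The values of the 12 were not computed without DCN day replicate 1. In SCGX the median was 0.043, and the 0.95 of ENSRNOG00000008942 was above each of the 12, whose highest was 0.33. For SCGX over DCN by day it was likewise outside them, at -1.70 against a lowest of -0.69. ENSRNOG00000001777 lay within the range of the 12 in each of these comparisons.

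With NE, 8 of the 12 were called and all 8 were lower, where 4.65% of all genes were called lower, with a median log2 fold change over the 12 of -1.11 against -0.025 over all genes. ENSRNOG00000008942, at -0.91, was above 8 of them and ENSRNOG00000001777, at -0.33, was not called. With DBcAMP, 7 of the 12 were called lower and 2 higher, where 7.08% of all genes were called lower and 9.62% higher, with a median of -1.18 against -0.031 over all genes, while the genes described here were at -0.07 and 0.11. For DBcAMP over NE the median of the 12 was 0.083. Of the 12, 11 lay at or below the 0.84 of ENSRNOG00000008942 and the highest was at 0.94. These positions are given as values, with no test of the list.

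**Figure D4:**
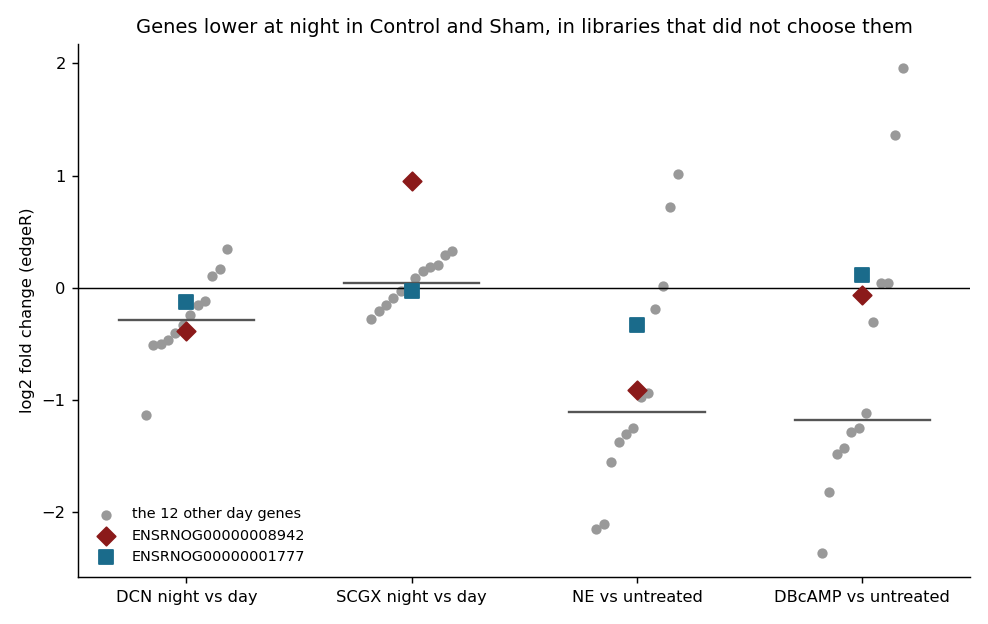
Log2 fold change from edgeR of the 12 other genes lower at night in Control and Sham (grey points; line: median) and of ENSRNOG00000008942 (diamonds) and ENSRNOG00000001777 (squares) in DCN, SCGX, NE and DBcAMP. In SCGX the diamond at 0.95 is above the 12, and with DBcAMP both genes lie near 0 while 7 of the 12 were called lower.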

How the data were processed

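RNA was measured in 36 libraries, grouped by their labels. The authors depleted ribosomal RNA, made strand-specific libraries, mapped them to rn4 with RNA-STAR (2.3.1y) and used QoRTs with the union rule of HTSeq on Ensembl genes, which leaves out pairs on more than 1 gene. The deposited counts are whole read-pairs without normalization. The deposited RPKM values are these counts per gene length and library total, and were used for lengths, ratios and percentiles. Near-identical gene copies can be undercounted.

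The tests were edgeR 4.0.16 (R 4.3.3) quasi-likelihood tests on the libraries compared, with TMM and a mean normalized count of at least 5, chosen after the study's threshold. Scripts were tested on simulated counts. DESeq2 1.42.0 and other settings were alternatives. Over 33 replicate pairs none was identical, and chi-square over degrees of freedom ranged from 5.78 to 41.2. With 3 pools per group, p-values set a group difference against the variation between pools, estimated with information shared over genes, and not against that between animals. Single-library intervals cover counting error only.

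The members and lists were chosen with earlier results of these data known. The gene tables used here hold no Ensembl identifiers, so lists of clock, melatonin, signalling and cell-type marker genes, the tissue label's markers, and sequences were not analysed here. The genes named are those of the selection rule.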

Additional observations from a re-analysis of the deposited data

Results flagged for a closer look

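For ENSRNOG00000008942 the responses to DBcAMP and NE differed from each other, with a log2 fold change of DBcAMP over NE of 0.84 and an adjusted p of 0.000146 in edgeR. All 3 DBcAMP libraries were above all 3 NE libraries. Over the alternatives with each of the 6 libraries left out, the adjusted p was between 4.29e-05 and 0.00245.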

How the results depend on the processing

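For the 2 genes, 206 alternative values were computed in the comparisons that did not choose them. Of these, 181 kept their direction and their side of the threshold, 6 lost the call, 1 gained it and 18 changed sign, each of the latter in a comparison that was not called. In Control and Sham, 36 of 36 alternative values stayed below 0. These contrasts chose the genes for large decreases and the alternatives reuse their libraries, so that count is a description only. The threshold behind the choice was met in 9 of 9 alternatives in Control for each gene, and in Sham it was not met in 6 of 9 for ENSRNOG00000008942 and 7 of 9 for ENSRNOG00000001777, among them the replicate block. DESeq2 moved ENSRNOG00000008942 to -1.69 for SCGX over DCN by day (adjusted p = 2.37e-05, called) and to -0.88 for NE (adjusted p = 0.00163, not called), and all culture libraries in 1 model moved DBcAMP over NE to 0.85 (adjusted p = 0.00276, not called). With library size only, ENSRNOG00000001777 was at 0.012 for SCGX night/day and at -0.023 for DBcAMP.

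Leaving out 1 library at a time, ENSRNOG00000008942 ranged from -0.85 to 0.011 in DCN night/day, from -0.67 to 0.11 for SCGX over DCN at night, from -1.11 to -0.72 with NE, from -0.26 to 0.12 with DBcAMP and from 0.75 to 0.93 for DBcAMP over NE. Its SCGX night/day value ranged from 0.64 to 1.25. ENSRNOG00000001777 ranged from -0.46 to 0.31 in DCN, from -0.18 to 0.12 in SCGX, from -0.57 to 0.20 for SCGX over DCN by day and from -0.39 to 0.016 at night, from -0.33 to 0.42 for the SCGX minus DCN difference of night/day, and from -0.094 to 0.54 with DBcAMP. For this gene with NE, 5 of the 6 fits gave a value, from -0.54 without Untreated replicate 1 to -0.11 without NE replicate 3, since without 1 library it was under the filter.

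The number of genes called moved more. Without 1 library it was 808 to 1488 in Control, 23 to 414 in Sham (lowest without Sham day replicate 2), 0 to 5 in SCGX, 1559 to 2198 with DBcAMP and 50 to 148 for DBcAMP over NE. DESeq2 called 27 in DCN, 176 in SCGX, 233 for SCGX over DCN by day and 4 at night, 2 for the difference of night/day and 436 for DBcAMP over NE. Without a filter on low counts 58 were called in SCGX, 2699 with NE, 3913 with DBcAMP and 575 for DBcAMP over NE. All in vivo libraries in 1 model gave 0 in SCGX and 15 for SCGX over DCN by day, and the small-count form of the quasi-likelihood test gave 4 in SCGX. The cause was not tested.

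The replicate numbers did not pair the samples, since in no comparison did all 3 numbers correlate above 0.1. With the replicate number as a block, 902 genes were called in Control, 39 in Sham (1 of them lower), 1 in SCGX and 79 for DBcAMP over NE. With library size only, the split of higher and lower calls moved from 1018 and 708 to 785 and 1068 with NE, and from 1462 and 1076 to 1069 and 1943 with DBcAMP. In Control it moved from 995 and 472 to 736 and 850, and in Sham from 265 and 100 to 270 and 163. The low counts of ENSRNOG00000001777 in culture limit what could be detected there.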
